A study of Mus musculus with 6 samples.

Results

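Tubulins, kinesins and the proteins that bind microtubules were followed as 1 set of genes in mouse aortic smooth muscle cells grown in culture. The set took every probe whose gene symbol begins with Tuba, Tubb, Tubg or Dpysl, every Kif gene with a number, and Map1a, Map1b, Map2, Map4, Map6, Map7 and Mapt, leaving out the spindle motors Kif2c, Kif4, Kif11, Kif20a, Kif22 and Kif23. It held 59 genes with 156 probes, of the 19057 genes and 45281 probes of the array. Only probes above background (detection p under 0.05) on 3 or more of the 6 arrays were kept, and 36 of the 59 genes had such a probe, 56 probes in all. The tested groups were FHL2-KO cells, from C57Bl/6 mice that lack the LIM-only adaptor protein FHL2, and WT cells from wild-type C57Bl/6 mice. Cells of both genotypes came from aorta, were grown until confluent and were then kept for 48 h in medium without serum. Each of the 3 cultures of a genotype held smooth muscle cells pooled from 3 aortas, so that 9 mice stood behind each genotype, and each culture was measured on 1 array. The age of the mice and the way FHL2 was deleted are not given in the sources used here.

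Microtubules are hollow polymers of alpha- and beta-tubulin dimers, and gamma-tubulin, held in ring complexes, starts new ones. Microtubule-associated proteins of the Map1, Map2, Map6, Map7 and tau kinds bind along the polymer and stabilise it or steer traffic on it, collapsin response mediator proteins (CRMPs, the Dpysl genes) bind tubulin dimers, and most kinesins are motors that walk towards the plus end with cargo. Many of these genes are best known from neurons, while in smooth muscle cells microtubules carry secretory cargo and influence contraction and stiffness.

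Fhl2 itself was checked first. Its brighter probe read 6.70, 6.65 and 7.04 on the log2 intensity scale in FHL2-KO replicates 1 to 3, against 11.23, 11.37 and 11.51 in WT replicates 1 to 3. The difference was -4.57 ± 0.15 (SE), or 23.8-fold lower in FHL2-KO cells, and every FHL2-KO array lay below every WT array. This probe was still detected on all 3 FHL2-KO arrays. The dimmer Fhl2 probe read 4.55, 4.43 and 4.43 in FHL2-KO cells, with detection on 0 arrays, and 8.52, 8.30 and 8.04 in WT cells. It was at least 8.12-fold lower in FHL2-KO cells. The median raw intensity was 140 to 168 on FHL2-KO arrays and 116 to 172 on WT arrays, and 14844 to 16115 probes were detected per array. Across kept probes the correlation was 0.985 to 0.988 within a genotype and 0.934 to 0.939 between genotypes. Of 8 smooth muscle markers 5 were detected on all 6 arrays (Acta2, Tagln, Smtn, Lmod1 and Des), Myh11 on 2 FHL2-KO arrays and 1 WT array, Myocd on 1 array and Cnn1 on 0.

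As a whole the set held more probes with higher than with lower signal in FHL2-KO cells. With limma's moderated test and Benjamini-Hochberg adjustment over all 15527 kept probes, 24 of the 56 probes were higher at an adjusted p under 0.05, 5 were lower and 27 did not pass. Over all kept probes 14.4% were higher and 15.2% lower. Taking each gene by its brightest kept probe, 16 of the 36 genes were higher, 4 lower and 16 did not pass, beside 14.8% and 16.5% of the 9051 genes tested. The median log2 fold change was 0.40 over the 56 probes, against -0.00096 over all kept probes. For 6 of the 56 probes (Tubb4a, Mapt, Kif18a, Kif18b, Kif20b and Kif5c) 1 genotype had no array with detection, so that they entered the test through the other genotype alone and only a bound on their fold can be given. With those probes at their bound the median was 0.29. The values of the 2 genotypes did not overlap for 36 of the 56 probes, beside 44.4% of all kept probes. In RNA from a whole culture, fewer cells of a type and less RNA per cell cannot be told apart.

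**Figure D1:**
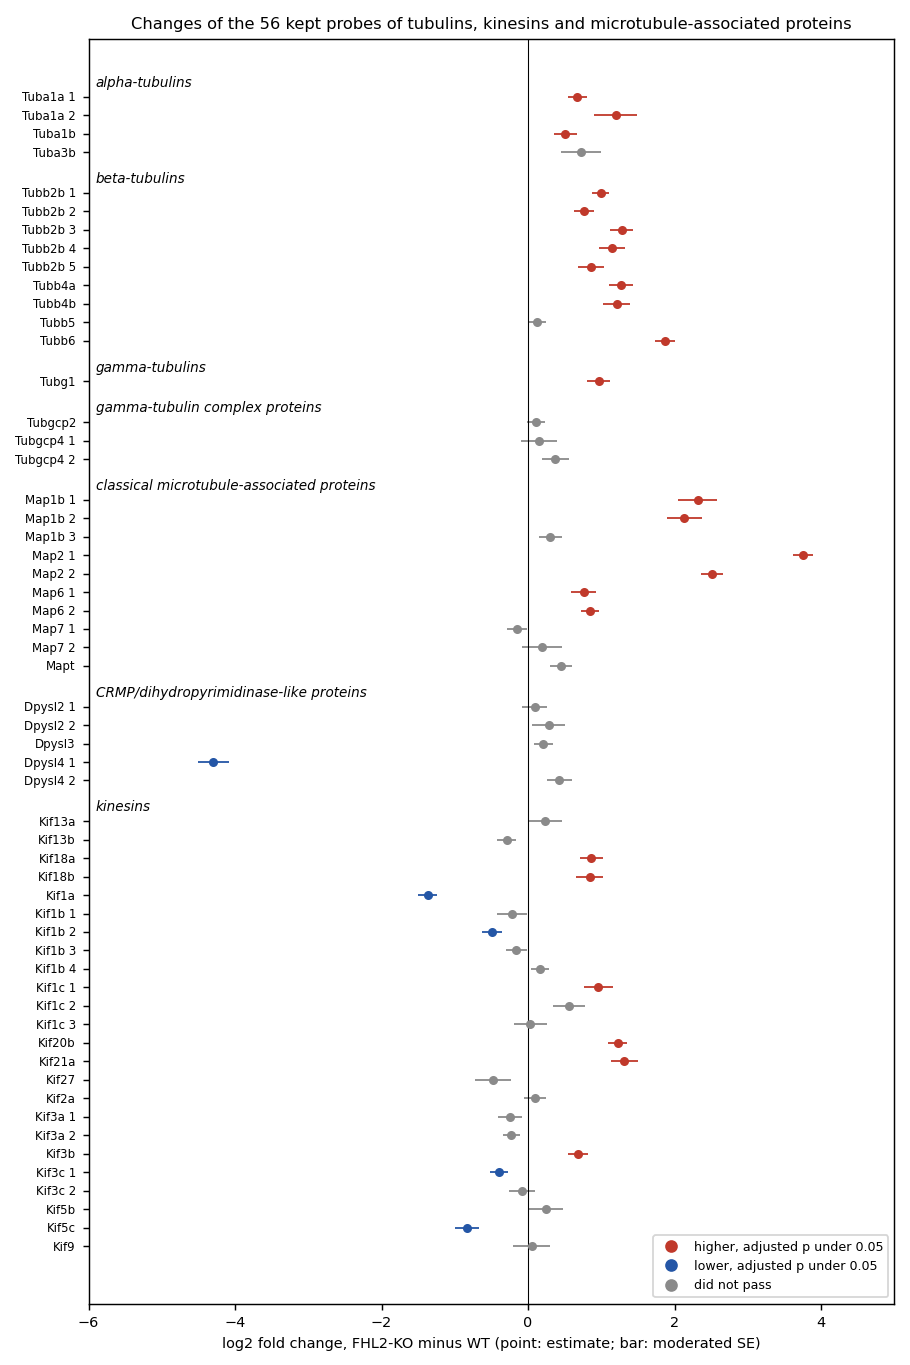
Change of each of the 56 kept probes, as the log2 fold change of FHL2-KO over WT on the horizontal axis, grouped by protein family; points are estimates, bars are moderated standard errors and colour gives the call, and probes of 1 gene are numbered by brightness. All called tubulins and classical microtubule-associated proteins lie to the right of 0, the largest change to the right is Map2 at 3.75 and the largest to the left is Dpysl4 at -4.30, and kinesins lie on both sides.

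All tubulins that passed the test moved the same way. Of the 9 tubulin genes with a kept probe, 7 were higher in FHL2-KO cells (77.8%, against 14.8% of all genes tested). None was lower, against 16.5% of all genes, and 2 did not pass. Of their 14 probes 12 were higher, beside 14.4% of all kept probes. Tubb4a, 1 of the 7, was kept through FHL2-KO arrays alone. With detection required on all 6 arrays, 12 tubulin probes were left, of which 11 were higher. The median log2 fold change of the 14 probes was 0.98, and 0.96 with Tubb4a at its bound. The families that make the dimer shared this direction, with 2 of 3 alpha-tubulin genes and 4 of 5 beta-tubulin genes higher, as was the only gamma-tubulin gene of the set.

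Tubb6, a beta-tubulin present in many tissues, changed most among the tubulins. It read 10.87, 10.90 and 10.82 in FHL2-KO cells, against 9.19, 8.99 and 8.79 in WT cells. The FHL2-KO arrays lay within 0.04 (SD) of their mean and well above every WT array. The log2 fold change was 1.87 ± 0.14 (SE), a 3.66-fold higher signal, with an adjusted p of 3.58e-05.

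Tubb4b, a beta-tubulin also abundant in ciliated cells, read 11.56, 11.44 and 11.55 in FHL2-KO cells and 9.90, 10.56 and 10.45 in WT cells. All FHL2-KO arrays were above all WT arrays, of which replicate 1 was the dimmest, and the signal was 2.31-fold higher (log2 1.21 ± 0.18 SE, adjusted p = 0.00172). Tubb4a, the beta-tubulin of brain and of myelinating glia, read 6.24, 6.34 and 6.04 in FHL2-KO cells and 5.22, 4.92 and 4.68 in WT cells, where it was detected on 0 of 3 arrays. It was at least 1.95-fold higher in FHL2-KO cells (adjusted p = 0.000843). A higher FHL2-KO value was part of how Tubb4a entered the test, so its values are a description.

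Tubb2b, a beta-tubulin of developing neurons, had 5 kept probes, which gave the same call. The brightest read 12.16, 11.96 and 12.17 in FHL2-KO cells and 11.10, 11.11 and 11.11 in WT cells, which is 1.99-fold higher with WT values that hardly differed (SD 0.0065). The next brightest read 10.78, 10.62 and 10.69 in FHL2-KO cells and 9.78, 9.91 and 10.13 in WT cells. The remaining probes were dimmer, and their groups did not overlap either. Over the 5 probes the log2 fold change ran between 0.76 and 1.28, with adjusted p-values of 0.00815 or less.

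Among the alpha-tubulins, Tuba1a, the main form of growing neurons, was higher by both of its kept probes. The brighter probe read 11.64, 11.47 and 11.49 in FHL2-KO cells and 10.69, 10.91 and 10.996 in WT cells, 1.59-fold higher (log2 0.67 ± 0.13 SE, adjusted p = 0.00622). The other read 11.24, 11.23 and 11.11 in FHL2-KO cells and 10.62, 10.09 and 9.28 in WT cells, 2.29-fold higher (log2 1.19 ± 0.30 SE), with the widest spread of the set in WT cells (SD 0.67). Tuba1b, a widely expressed alpha-tubulin, read 13.48, 13.24 and 13.19 in FHL2-KO cells and 12.53, 12.90 and 12.96 in WT cells. Its groups did not overlap, and the log2 fold change of 0.51 ± 0.16 (SE) passed narrowly at an adjusted p of 0.0433. Without FHL2-KO replicate 1, 2 or 3 or WT replicate 1 or 2 that adjusted p lay above the threshold, between 0.0648 and 0.125. Tuba3b, a form known from mouse testis, read 5.31, 6.15 and 5.49 in FHL2-KO cells and 4.67, 5.41 and 4.70 in WT cells, with overlapping groups and an adjusted p of 0.0788. Its log2 value was 0.73 ± 0.27 (SE), and without WT replicate 2 it was 1.01 with an adjusted p of 0.0333.

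Tubg1, the gamma-tubulin that seeds microtubules, read 9.04, 8.95 and 9.14 in FHL2-KO cells and 7.85, 8.38 and 8.01 in WT cells. Every FHL2-KO array was above every WT array, and the signal was 1.95-fold higher (log2 0.96 ± 0.16 SE, adjusted p = 0.00267). The proteins that hold gamma-tubulin in its complexes gave no call. Tubgcp2, a core subunit, differed by 0.11 ± 0.13 (SE) on the log2 scale, and Tubgcp4, which is found in the full ring, by 0.15 ± 0.25 and 0.37 ± 0.19 (SE) in its kept probes, with adjusted p-values of 0.177 to 0.698. Tubgcp3, Tubgcp5 and Tubgcp6 were detected on at most 1 array.

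Tubb5, the most widely used beta-tubulin, did not pass. It read 13.86, 13.80 and 13.95 in FHL2-KO cells and 13.80, 13.72 and 13.73 in WT cells, and the groups overlapped. The log2 difference was 0.12 ± 0.11 (SE), with an adjusted p of 0.468. Tubb3, the neuron-specific beta-tubulin, was detected on 0 arrays, Tubb2a on 2 FHL2-KO arrays and no WT array, and Tuba4a on no FHL2-KO array and 2 WT arrays, so none of these was tested. The probe sequences were not used here, so whether a tubulin probe tells its gene from the near-identical members of the family was not tested.

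**Figure D2:**
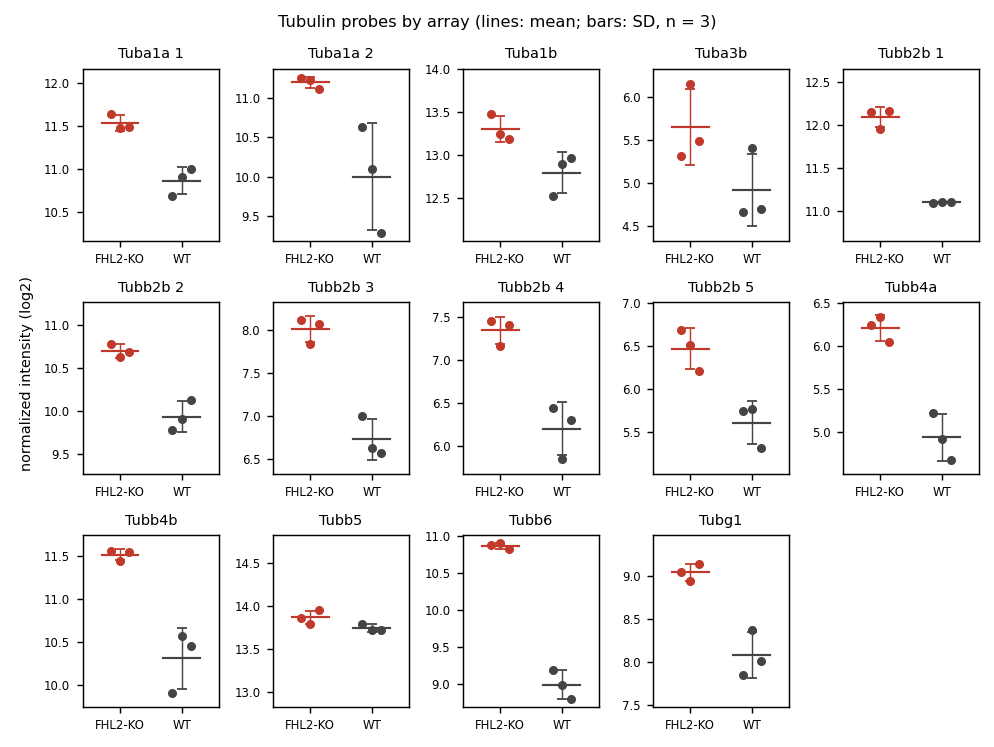
Normalized log2 intensity of the 14 kept tubulin probes, 1 panel per probe, with FHL2-KO arrays left of WT arrays; points are arrays, lines are means and bars are standard deviations (n = 3), and each panel has its own axis range. FHL2-KO points lie above all WT points for 12 of the probes, with the widest gap for Tubb6, while Tuba3b and Tubb5 overlap.

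For 25 of the 36 kept genes RefSeq gave 29 transcription starts on the mouse assembly GRCm38.p6, and the 250 bases before each start were searched on both strands for 6 short motifs. The promoters of Tuba1a and Tubb4b are shown as examples from the alpha- and beta-tubulins that rose, each as the 150 bases before the start, 5′ to 3′ on the strand of the gene, with motif letters of either strand in capitals. Tuba1a lies on the minus strand at chr15:98953502-98953651 and Tubb4b on the minus strand at chr2:25224703-25224852.
Tuba1a: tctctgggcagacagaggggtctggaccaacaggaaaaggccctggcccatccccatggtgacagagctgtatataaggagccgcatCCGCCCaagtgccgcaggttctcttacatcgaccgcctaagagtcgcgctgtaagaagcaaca
Tubb4b: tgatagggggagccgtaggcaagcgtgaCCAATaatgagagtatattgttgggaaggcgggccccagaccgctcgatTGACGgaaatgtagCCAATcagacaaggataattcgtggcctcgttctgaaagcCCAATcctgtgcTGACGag
The Tuba1a stretch holds 1 GC box (letters GGGCGG, here on the other strand). The Tubb4b stretch holds 3 copies of the CCAAT box (letters CCAAT) and 2 of the letters TGACG, which are found in cAMP response elements. These examples were chosen after the values were seen.

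Other genes that differed between the genotypes are given here as measured, since they move with the same contrast. The counts stand beside 14.8% higher and 16.5% lower among all 9051 genes tested, and several of the lists are short. Of 18 proliferation and spindle genes on the array 13 had a kept probe, and 12 of these were higher in FHL2-KO cells. Ccna2, Bub1, Tpx2, Kif11 and Kif20a were detected on at most 2 arrays and were not tested. The normalized intensity, summed over the kept genes of the list, was 7820 to 8430 on FHL2-KO arrays and 2468 to 3478 on WT arrays. Kif23, the brightest of them, made up a large part of these sums and was 1.73-fold higher. It read 11.58, 11.98 and 11.78 on the log2 scale in FHL2-KO cells and 10.48, 11.22 and 11.27 in WT cells. Of 9 epithelial and mesothelial markers on the array 4 had a kept probe, and these were higher. Their sums were 2600 to 2794 in FHL2-KO cells and 130 to 152 in WT cells. Krt8, Krt18, Krt19, Epcam and Lrrn4 were detected on at most 2 arrays and were not tested. The endothelial markers were lower in 6 of 7 (summed 211 to 234 in FHL2-KO cells and 1641 to 2162 in WT cells). Of the adventitial fibroblast markers 4 of 6 were lower and 1 was higher. Their sums were 1302 to 1378 in FHL2-KO cells and 5903 to 6441 in WT cells. Detection was in WT cells alone for all 6 lower endothelial markers and 1 lower adventitial marker. It was in FHL2-KO cells alone for 4 proliferation genes and 2 epithelial and mesothelial markers. A difference was thus part of how these genes entered the test. Of the macrophage and leukocyte markers 1 of 3 was lower, with sums of 156 to 164 in FHL2-KO cells and 416 to 507 in WT cells. The difference in these sums is that of Lyz2, which read 5.90, 6.19 and 6.08 in FHL2-KO cells and 8.39, 8.33 and 8.70 in WT cells. Csf1r and Aif1 differed by -0.00099 and 0.04 on the log2 scale and did not pass. Ptprc and Adgre1 were detected on 0 arrays. Smooth muscle markers were higher in 2 of 6 (Acta2 and Lmod1), with sums of 34703 to 38594 in FHL2-KO cells and 22159 to 28434 in WT cells. These sums are nearly Acta2 alone. It read 15.20, 15.11 and 15.04 on the log2 scale in FHL2-KO cells and 14.76, 14.38 and 14.69 in WT cells. The next brightest, Smtn, read at most 9.20, and Myh11, Tagln, Smtn and Des did not pass. The part of these differences in the tubulin, kinesin and microtubule-associated protein values was not tested.

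The classical microtubule-associated proteins held the largest rises of the set. Of the 5 genes with a kept probe, Map1b, Map2 and Map6 were higher in FHL2-KO cells (60%, against 14.8% of all genes tested). None was lower, against 16.5% of all genes, and Map7 and Mapt did not pass. Of 10 kept probes 6 were higher, beside 14.4% of all kept probes, and the median log2 fold change was 0.80.

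Map2, which binds microtubules in the dendrites of neurons, changed more than any other member that rose. Its brighter probe read 10.42, 10.72 and 10.42 in FHL2-KO cells, against 6.87, 6.77 and 6.67 in WT cells. The gap between the genotypes was many times the spread within either, with a log2 fold change of 3.75 ± 0.14 (SE), 13.5-fold higher, and an adjusted p of 1.38e-06. The other kept probe read 7.88, 7.82 and 7.81 in FHL2-KO cells and 5.62, 5.13 and 5.25 in WT cells, where it was detected on 2 of 3 arrays, and was 5.68-fold higher. The array carried 9 probes for Map2, and the 7 that were not kept were detected on at most 2 arrays. Those with any detection had it on FHL2-KO arrays.

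Map1b, the microtubule-associated protein of growing axons, read 9.57, 9.50 and 9.29 in FHL2-KO cells and 7.80, 6.97 and 6.65 in WT cells by its brightest probe. This was a 4.97-fold higher signal (log2 2.31 ± 0.27 SE, adjusted p = 0.00045), with a wider spread in WT cells (SD 0.59) than in FHL2-KO cells (SD 0.15). A dimmer probe read 6.99, 7.27 and 7.29 in FHL2-KO cells and 4.99, 4.58 and 5.58 in WT cells, where it was detected on 1 of 3 arrays, and its log2 fold change was 2.13 ± 0.24 (SE). The third kept probe differed by 0.31 ± 0.15 (SE) with overlapping groups and an adjusted p of 0.179. It read 5.98, 5.68 and 5.56 in FHL2-KO cells and 5.61, 5.41 and 5.28 in WT cells.

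The promoters of these genes, the largest rises of the set, are shown in the same way. Map2 lies on the plus strand at chr1:66175179-66175328 and Map1b on the minus strand at chr13:99516603-99516752.
Map2: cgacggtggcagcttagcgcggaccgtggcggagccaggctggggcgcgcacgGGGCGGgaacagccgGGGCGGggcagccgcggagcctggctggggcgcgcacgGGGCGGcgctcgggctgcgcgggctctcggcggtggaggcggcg
Map1b: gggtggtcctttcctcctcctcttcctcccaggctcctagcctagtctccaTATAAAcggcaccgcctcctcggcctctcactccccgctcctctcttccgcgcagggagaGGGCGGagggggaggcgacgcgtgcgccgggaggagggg
The Map2 stretch holds 3 GC boxes and the Map1b stretch 1, beside 1 TATA box (letters TATAAA). A GC box stood before 11 of the 12 starts of member genes that rose, 0 of the 4 of genes that fell and 7 of the 13 of genes that did not pass. The starts of genes that fell were those of the kinesins Kif1a, with 2 starts, Kif3c and Kif5c, and Dpysl4 was not among them. Among the starts of all tested genes the share with a GC box was 58.1%, with 60.2% for genes that were higher, 54.8% for genes that were lower and 32.7% over all 32851 starts of the table. A match to these letters is a description and not a binding site.

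Map6, which protects microtubules against cold and drugs, was higher by both kept probes. They read 7.19, 7.69 and 7.58 in FHL2-KO cells and 6.56, 6.70 and 6.94 in WT cells for the first, with a log2 fold change of 0.76 ± 0.17 (SE). The second read 7.40, 7.34 and 7.16 in FHL2-KO cells and 6.38, 6.55 and 6.43 in WT cells, with a log2 fold change of 0.85 ± 0.12 (SE). Neither pair of groups overlapped, and the adjusted p-values were 0.0116 and 0.0015.

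Mapt, which encodes tau, the axonal microtubule-associated protein, read 5.28, 5.73 and 5.46 in FHL2-KO cells and 5.11, 4.94 and 5.09 in WT cells. It was detected on 3 FHL2-KO arrays and no WT array, and its log2 difference of 0.45 ± 0.15 (SE) missed the threshold at an adjusted p of 0.0526, while without FHL2-KO replicate 1 it passed at 0.038. Map7, which recruits kinesin-1 to microtubules, read 7.56, 7.90 and 7.93 in FHL2-KO cells and 7.96, 7.96 and 7.94 in WT cells by its brighter probe, a log2 difference of -0.16 ± 0.14 (SE). Map4, the main microtubule-associated protein of non-neural cells, had 6 probes and none was kept, and Map1a was detected on 0 arrays.

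Because Map2, Map1b, Tubb2b, Tubb4a and tau are used as neural genes, a list of neural and Schwann cell markers was read beside them. Of 13 such genes on the array 2 had a kept probe, of which 1 was higher, beside 14.8% of all genes tested. Mbp, a myelin protein, read 6.39, 6.70 and 6.26 in FHL2-KO cells and 4.69, 4.72 and 5.15 in WT cells, at least 2.30-fold higher. It was detected on 0 WT arrays, so a higher FHL2-KO value was part of how it entered the test. Ncam1, an adhesion protein, differed by -0.06 on the log2 scale by its brightest probe, and 3 of its 4 kept probes did not pass. The neurofilament genes Nefl and Nefm, the synaptic gene Snap25, the neuronal RNA-binding genes Elavl3 and Elavl4, Stmn2 and the Schwann cell factor Sox10 were detected on 0 arrays. The other genes of the list without a kept probe were Rbfox3, detected on 2 arrays, and Syp, S100b and Gfap, each detected on 1. The summed intensity of the list's 2 kept genes was 192 to 315 on FHL2-KO arrays and 168 to 182 on WT arrays. The highest sum was that of FHL2-KO replicate 2, where Ncam1 read 7.72, against 6.75 and 6.85 in FHL2-KO replicates 1 and 3. The part of these markers in the Map2, Map1b and tubulin values was not tested.

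Of the 3 CRMP genes with a kept probe 0 were higher, 1 was lower and 2 did not pass, beside 14.8% higher and 16.5% lower among all genes tested. Dpysl4, which encodes CRMP3, held the largest fall of the whole set. Its brighter probe read 5.70, 4.87 and 5.45 in FHL2-KO cells, against 9.72, 9.61 and 9.57 in WT cells, and was detected on 2 of 3 FHL2-KO arrays. The log2 fold change was -4.30 ± 0.21 (SE), 19.6-fold lower in FHL2-KO cells, with an adjusted p of 4.9e-06. The other kept Dpysl4 probe did not pass. It read 5.61, 5.54 and 6.10 in FHL2-KO cells and 5.21, 5.35 and 5.42 in WT cells, a log2 value of 0.42 ± 0.17 (SE) with an adjusted p of 0.101, and a further probe was detected on 0 arrays. Both kept probes are annotated to RefSeq transcripts of this gene, and the call therefore rests on 1 of its 3 probes.

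Dpysl2, which encodes CRMP2, the best studied tubulin-binding member, read 12.45, 12.62 and 12.59 in FHL2-KO cells and 12.66, 12.61 and 12.12 in WT cells. Its groups overlapped, and the log2 difference was 0.09 ± 0.17 (SE). Dpysl3, which encodes CRMP4, differed by 0.21 ± 0.13 (SE) with an adjusted p of 0.287. Dpysl5 was detected on 0 arrays.

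**Figure D3:**
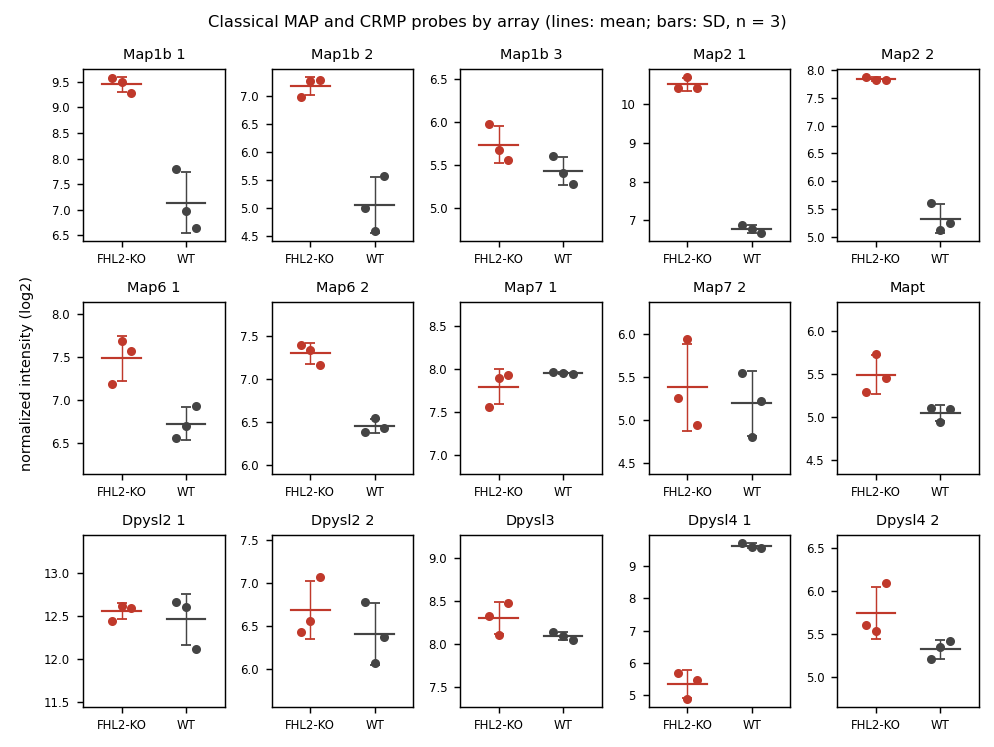
Normalized log2 intensity of the 10 kept probes of classical microtubule-associated proteins and the 5 kept CRMP (Dpysl) probes, 1 panel per probe, with FHL2-KO arrays left of WT arrays; points are arrays, lines are means and bars are standard deviations (n = 3), and each panel has its own axis range. Map2 shows the widest upward gap, at 10.42 to 10.72 in FHL2-KO cells over 6.67 to 6.87 in WT cells, and Dpysl4 the widest downward gap in its brighter probe only.

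The kinesins moved in both directions. Of 27 Kif genes of the set 17 had a kept probe, of which 6 were higher in FHL2-KO cells (35.3%, against 14.8% of all genes tested), 3 lower (17.6%, against 16.5%) and 8 did not pass. The median log2 fold change of their 24 probes was 0.04. Kif18a, Kif18b and Kif20b among the higher genes were kept through FHL2-KO arrays alone, and Kif5c among the lower ones through WT arrays alone. With detection required on all 6 arrays, 14 kinesin probes were left, of which 2 were higher and 3 lower. Those that rose were Kif1c, Kif3b, Kif18a, Kif18b, Kif20b and Kif21a, and those that fell were Kif1a, Kif3c and Kif5c.

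Kif1a, the motor that carries synaptic vesicle precursors along axons, had the largest fall among kinesins. It read 8.99, 8.97 and 8.84 in FHL2-KO cells and 10.45, 10.26 and 10.21 in WT cells. The groups were far apart for their spread, with a log2 fold change of -1.37 ± 0.13 (SE), 2.59-fold lower in FHL2-KO cells, and an adjusted p of 0.000121. Kif1c, a relative that carries vesicles and integrins, was higher by its brightest probe, at 8.59, 8.41 and 8.14 in FHL2-KO cells and 7.77, 7.42 and 7.07 in WT cells (log2 0.96 ± 0.20 SE, adjusted p = 0.00835). Its other kept probes, both dimmer, gave 0.56 ± 0.22 and 0.03 ± 0.22 (SE) and did not pass. Kif1b, which carries mitochondria and vesicles, had 4 kept probes with log2 values of -0.22, -0.49, -0.16 and 0.16 in order of brightness. The second of these was lower at an adjusted p of 0.0285, which lay between 0.0546 and 0.0946 without FHL2-KO replicate 1, 2 or 3 or WT replicate 2 or 3, and the brightest did not pass.

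The heterotrimeric kinesin-2 subunits, which drive transport into cilia and along axons, split. Kif3b read 7.48, 7.63 and 7.33 in FHL2-KO cells and 6.94, 6.66 and 6.79 in WT cells, 1.6-fold higher with no overlap (log2 0.68 ± 0.14 SE, adjusted p = 0.00724). Kif3a, the partner of Kif3b, gave -0.25 ± 0.17 and -0.23 ± 0.11 (SE) in its kept probes, and neither passed. Kif3c, the alternative partner of Kif3a, read 8.94, 8.74 and 8.98 in FHL2-KO cells and 9.38, 9.17 and 9.30 in WT cells. Its groups did not overlap and its log2 fold change of -0.40 ± 0.13 (SE) passed narrowly at an adjusted p of 0.049. Leaving out any 1 of the 6 arrays, FHL2-KO replicates 1 to 3 and WT replicates 1 to 3, took that p to between 0.0668 and 0.17, and its other kept probe gave -0.08 ± 0.17 (SE).

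Kinesin-1 heavy chains carry vesicles and organelles. Kif5c, a neuronal form, read 4.94, 4.54 and 4.99 in FHL2-KO cells, where it was detected on 0 of 3 arrays, and 5.54, 5.57 and 5.86 in WT cells, where it was detected on all 3. It was at least 1.31-fold lower in FHL2-KO cells (adjusted p = 0.00641). A lower FHL2-KO value was part of how Kif5c entered the test, so its values are a description. Kif5b, the form that most cells use, differed by 0.24 ± 0.24 (SE) with overlapping groups, and Kif5a, another neuronal form, was detected on 0 arrays. Kif21a, a motor that restrains microtubule growth at the cell cortex, read 6.37, 6.60 and 6.63 in FHL2-KO cells and 4.90, 5.56 and 5.20 in WT cells. It was 2.49-fold higher (log2 1.31 ± 0.18 SE, adjusted p = 0.00111), with detection on 2 of 3 WT arrays.

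The set's name speaks of interphase kinesins, but Kif18a, Kif18b and Kif20b, which it also takes, are known for work in mitosis and cytokinesis. Each was detected on all 3 FHL2-KO arrays and on 0 WT arrays, so a higher FHL2-KO value was part of how it entered the test, and the values are a description. Kif18a, which dampens chromosome movements, read 5.36, 5.63 and 5.51 in FHL2-KO cells and 4.93, 4.46 and 4.50 in WT cells. Kif18b, which shortens astral microtubules, read 5.35, 5.68 and 5.70 in FHL2-KO cells and 5.09, 4.51 and 4.61 in WT cells. Kif20b, a motor of cytokinesis, read 5.88, 5.81 and 6.02 in FHL2-KO cells and 4.78, 4.57 and 4.70 in WT cells. They were at least 1.19-fold, 1.26-fold and 1.57-fold higher in FHL2-KO cells, in that order (adjusted p of 0.0105 or less). Among the proliferation genes given above, Plk1 read 8.98, 8.88 and 9.02 in FHL2-KO cells and 6.31, 5.69 and 5.85 in WT cells, and the left-out spindle motor Kif22 was also higher, by 2.92 on the log2 scale. Kif15, a spindle motor of the set, had 4 probes, and each was detected on 0 arrays.

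The promoter of Kif18b, from the kinesins that rose, and those of Kif1a and Kif5c, from those that fell, are shown in the same way. Kif18b lies on the minus strand at chr11:102925125-102925274, Kif1a on the minus strand at chr1:93101875-93102024, for the more upstream of its 2 starts, and Kif5c on the plus strand at chr2:49619136-49619285.
Kif18b: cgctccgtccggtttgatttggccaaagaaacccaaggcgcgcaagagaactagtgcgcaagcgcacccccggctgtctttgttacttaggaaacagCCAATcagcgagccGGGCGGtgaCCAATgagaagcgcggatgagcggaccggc
Kif1a: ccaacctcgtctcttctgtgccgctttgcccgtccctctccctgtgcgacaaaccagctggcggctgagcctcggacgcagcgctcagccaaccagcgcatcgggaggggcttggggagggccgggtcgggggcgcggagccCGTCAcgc
Kif5c: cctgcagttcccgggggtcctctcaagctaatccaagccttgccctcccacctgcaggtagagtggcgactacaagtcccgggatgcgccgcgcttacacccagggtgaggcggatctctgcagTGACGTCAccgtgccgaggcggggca
The Kif18b stretch holds 2 CCAAT boxes and 1 GC box. The Kif1a stretch holds the letters TGACG once, on the other strand, and the Kif5c stretch holds them on both strands, overlapping. The letters TGACG stood before 4 of the 12 starts of member genes that rose, 3 of the 4 of genes that fell and 2 of the 13 of genes that did not pass, against 26.4% of the starts of all tested genes. The CCAAT box stood before 4, 0 and 6 of these starts in that order, against 35.5%. The TATA box stood before 1, 1 and 3 of them, against 6.91%, the letters TTTGAA before 1, 1 and 3, against 10.4%, and the CArG box, the site of serum response factor, before 1, 0 and 0, against 1.26%. With so few starts per group these shares are descriptions.

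The kinesins that did not pass spanned small differences. Kif2a, which depolymerises microtubules, differed by 0.09 ± 0.15 (SE), the endosome motors Kif13a and Kif13b by 0.23 ± 0.23 and -0.29 ± 0.13 (SE), and the cilium-related Kif9 and Kif27 by 0.05 ± 0.25 and -0.48 ± 0.24 (SE). Adjusted p-values of these genes lay between 0.13 and 0.909. The kinesins without a kept probe were Kif2b, Kif5a, Kif7, Kif12, Kif15, Kif16b, Kif17, Kif21b, Kif24 and Kif26a, of which Kif16b was detected on 1 array and the others on 0 arrays. Over all members, 23 genes had no kept probe. Of these 16 were detected on 0 arrays, 5 on 1 and 2 on 2.

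**Figure D4:**
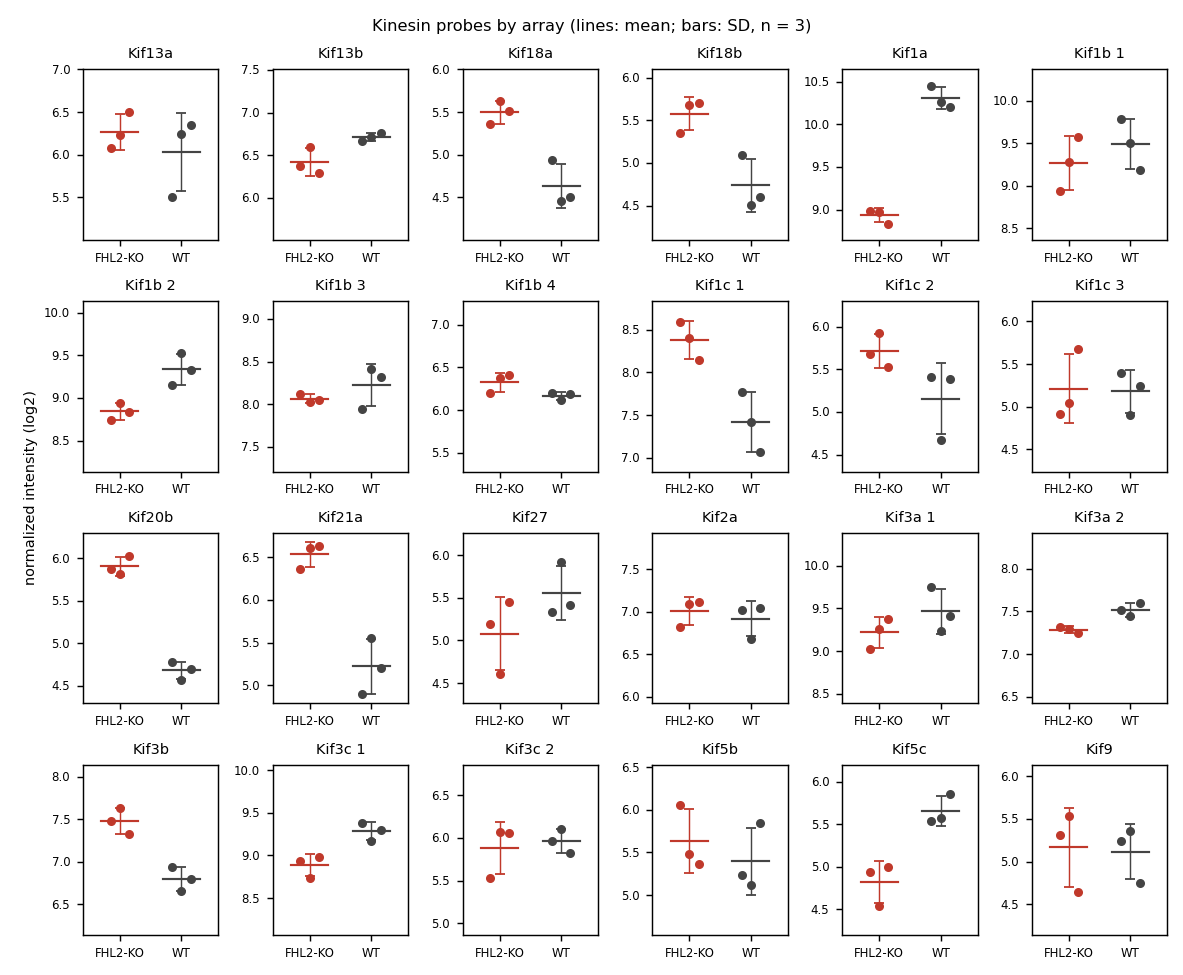
Normalized log2 intensity of the 24 kept kinesin probes, 1 panel per probe, with FHL2-KO arrays left of WT arrays; points are arrays, lines are means and bars are standard deviations (n = 3), and each panel has its own axis range. Kif1a lies lower in FHL2-KO cells (8.84 to 8.99 against 10.21 to 10.45 in WT cells), Kif20b and Kif21a lie higher, and the probes of Kif1b and of Kif1c differ among themselves.

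Genes with several kept probes allow a check within the set. Of 13 such genes 8 had the same call for every kept probe, among them Tubb2b, Tuba1a, Map2 and Map6, and 5 did not, namely Dpysl4, Kif1b, Kif1c, Kif3c and Map1b. The spread between cultures was similar in both genotypes, with a median SD over the 56 probes of 0.164 in FHL2-KO cells and 0.220 in WT cells.

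The size of the changes depended on the background correction, also for the largest ones. Without any background correction the log2 fold change was 2.72 in place of 3.75 for Map2, 1.58 in place of 2.31 for Map1b and -2.42 in place of -4.30 for Dpysl4, so the folds given for them hold for the correction used. For dimmer members it was 0.38 in place of 1.27 for Tubb4a, 0.30 in place of 0.87 for Kif18a, 0.37 in place of 1.22 for Kif20b and -0.25 in place of -0.83 for Kif5c, and all of these passed the test under both.

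Genes that act on the same polymers but lie outside the set were read from 5 further lists. Of 18 tested genes for tubulin folding, stathmins and tubulin-modifying enzymes, 4 were higher, 1 was lower and 13 did not pass, with a median log2 fold change of 0.06. Those that did not pass were 72.2% of this list, against 68.7% of all genes tested. The share higher was 22.2%, against 14.8%, and the share lower 5.56%, against 16.5%. The counts of the 5 lists are given as descriptions. Tbcd, a folding cofactor that handles beta-tubulin, read 8.19, 8.08 and 8.21 in FHL2-KO cells and 7.56, 7.59 and 7.70 in WT cells (log2 0.55 ± 0.12 SE). The modifying enzymes Ttll5 and Ttll12 were higher by 1.02 ± 0.23 and 0.51 ± 0.13 (SE), for Ttll5 in only 1 of 2 kept probes. Arl2, a small GTPase that works with the folding cofactors, was lower, with a log2 fold change of -0.51 ± 0.15 (SE).

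Of 7 genes of the gamma-tubulin ring and the minus end, 0 were higher, 1 was lower and 6 (85.7%) did not pass, leaving aside the Tubgcp genes given above. The lower gene was Mzt2, a small ring subunit, which read 8.68, 8.97 and 8.95 in FHL2-KO cells and 9.51, 9.59 and 9.67 in WT cells (log2 -0.73 ± 0.13 SE, adjusted p = 0.00416). Nedd1, Mzt1 and Ninl gave log2 values of -0.18, -0.23 and -0.23 and did not pass. The median log2 fold change of the list was -0.23, beside 0.96 for Tubg1.

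Of 31 plus-end, severing and further microtubule-associated genes, 7 were higher, 3 lower and 21 (67.7%) did not pass, with a median log2 fold change of 0.09, and 6 of the 31 were kept through 1 genotype alone. Map7d3, a relative of Map7 that helps recruit kinesin-1, read 5.09, 5.19 and 5.001 in FHL2-KO cells, with detection on 0 arrays, and 7.95, 7.62 and 7.39 in WT cells. It was at least 5.24-fold lower in FHL2-KO cells (adjusted p = 1.9e-05). Mtus1, a microtubule-stabilising protein, was 2.49-fold higher. Mark1, a kinase that acts on tau and Map2, and the severing-related Fignl1, both undetected in WT cells, were at least 2.33-fold and 2.09-fold higher. For Map7d3, Mark1 and Fignl1 a difference was part of how they entered the test, so their values are descriptions.

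Of 11 kinesin light chains, adaptors and C-terminal kinesins, 2 were higher (18.2%, against 14.8% of all genes). In the same list 1 was lower (9.09%, against 16.5%) and 8 (72.7%) did not pass. Kifc1, a C-terminal spindle kinesin, was higher by 1.21 ± 0.18 (SE) on the log2 scale, and Trak1, which links mitochondria to motors, by 0.70 ± 0.14 (SE). Mapk8ip3, a kinesin-1 and dynein adaptor, was lower (-0.82 ± 0.19 SE), and Kifap3, the adaptor of the Kif3 motors, gave -0.37 ± 0.12 (SE) at an adjusted p of 0.0506. Of 24 dynein and dynactin genes, 4 were higher (16.7%, against 14.8% of all genes), 2 were lower (8.33%, against 16.5%) and 18 (75%) did not pass, with a median of 0.07. Dync2h1, the dynein heavy chain of cilia, was lower (-0.91 ± 0.15 SE), and Nde1, Dynlt3 and Bicd2, which regulate, form part of or adapt dynein, were higher by 0.72, 0.69 and 0.50 on the log2 scale. For Dync2h1 only 1 of 2 kept probes was called lower, and for Kifap3 2 of 3 kept probes did not pass.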

How the data were processed

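Cells of 3 FHL2-KO and 3 WT cultures were profiled with Illumina beadchips (1 colour, biotin label), and were grouped and numbered by their labels. The authors deposited 1 raw bead intensity per probe and array, with neither background subtraction nor scaling visible in the values, and a detection p-value beside each intensity, per the file headers. The deposited matrix on the log2 scale, normalized between arrays, served as an alternative. GenomeStudio 2011.1, R 2.14.0 and limma 3.10.2 are listed, with no step attached to them, per the submitters' processing notes.

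Normalization here used neqc of limma 3.58.1 in R 4.3.3 (background from the detection p-values, normexp, offset 16, quantile normalization, log2). The offset makes fold changes of dim probes smaller. Of 45281 probes, 15527 had a detection p under 0.05 on at least 3 of 6 arrays. Differences were fitted with lmFit and eBayes, FHL2-KO minus WT, with Benjamini-Hochberg adjustment across these 15527, so all adjusted p-values are limma's. SE is the moderated standard error, SD the spread of 3 arrays. A gene is its brightest kept probe. Where a genotype had no array with detection, only a bound on the fold is given ("at least"): the mean of the detected genotype is set against the other's mean after each of its arrays is raised, where lower, to the lowest signal detected there. The number of arrays limits the precision.

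Symbols came from the platform annotation, updated through a RefSeq table of GRCm38.p6, and named 34885 probes by 1 symbol, 18 by several and left 10378 without. Promoter sequences are RefSeq's on that assembly. Motif searches covered 250 bases before each start.

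The members, the lists and the alternatives were chosen with earlier results of these data known. Every called member is described. Values per array are given for the 20 called genes with the largest change and for all kept tubulins, and from each list of microtubule genes up to 4 with the smallest p are named. Plk1, Kif22, Kif23, Ptprc, Adgre1, Lyz2, Csf1r and Aif1 were named beyond this rule, after their values were seen. So were the proliferation, epithelial, mesothelial and neural genes without a kept probe. No batch was tested, since neither slide nor scan date is given in the sources used here.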

Additional observations from a re-analysis of the deposited data

How the results depend on the processing

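The number of member probes higher in FHL2-KO cells was 24 in the fit as reported and 17 to 26 under the other settings, 23 to 24 of these without 1 array. Member genes higher were 16, and 11 to 17 elsewhere. Member probes lower numbered 5, but 3 with arrays scaled to equal medians, 3 with detection required on all 6 arrays, 3 with no filter on dim probes, 3 with a fold change of at least 1.5, and 3 to 4 when 1 array was left out. Member genes lower numbered 4, but 2 with detection on all 6 arrays. Scaling to equal medians took all kept probes to 1002 higher and 1561 lower, against 2235 and 2361. The cause of these shifts was not tested, except that fewer probes enter when detection on all 6 arrays is required. With equal medians the moderated SE was 0.279 for each of Dpysl4 (brighter probe), Kif18a and Kif1a. In the fit as reported it was 0.21, 0.16 and 0.13 in that order. The same 0.279 held for Dpysl2, Dpysl3, Kif13a, Kif13b and Kif18b, against 0.13 to 0.23 in the fit as reported. This setting thus gave all these probes 1 common and larger SE. Of the called member probes 0 changed direction under any setting, and the calls whose adjusted p some setting took above 0.05 were those of Kif1b, Kif3b, Kif3c, Map6, Tuba1a (brighter probe), Tuba1b and Tubb2b (1 of 5 probes). The tubulin probes higher numbered 9 to 13 of at most 14 under these settings, and 0 were lower under any of them, while kinesin probes numbered 2 to 7 higher and 2 to 4 lower. Direction turned in probes that had not passed and stayed short of the threshold. With equal medians the log2 value was -0.060 for a dim Kif1c probe and -0.023 for Kif2a. Leaving out 1 array moved it between -0.083 and 0.19 for Dpysl2, -0.029 and 0.38 for Kif13a, -0.21 and 0.18 for that Kif1c probe, -0.028 and 0.19 for Kif2a, -0.17 and 0.10 for the dimmer Kif3c probe, -0.14 and 0.32 for Kif9, -0.091 and 0.42 for the dimmer Map7 probe, and -0.13 and 0.42 for Tubgcp4. Tuba3b, Mapt and a Kif1c probe passed the threshold under some settings.

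With the replicate number as a block, member probes were 24 higher and 4 lower, member genes 16 higher and 3 lower, and all kept probes 2147 higher and 2258 lower. Kif3c and Tuba1b missed the threshold there (adjusted p = 0.0578 and 0.0776 by limma), and Tuba3b passed it at 0.00745. Same-numbered arrays of the 2 genotypes deviated together at r = 0.118, 0.0727 and 0.0641, against -0.0741 to 0.00863 for other pairs, and each of the 6 arrays correlated best with its own number, which is a hint from the data and not from the design. Of the 56 kept probes 6 had no detection in 1 genotype, where signal near background leaves only a bound.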
